A study of Mus musculus with 24 samples.

Results

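Genes that move platinum and copper across membranes, together with the metallothioneins, were followed in ID8 P53 KO cells, a mouse ovarian cancer line in which Trp53 has been disrupted, so that every group compared here, DMSO included, lacks it. The 10 genes were chosen by symbol from the 25229 symbols of the count table: Slc31a1, Slc31a2, Atp7a, Atp7b, Abcc1, Abcc2, Abcc4, Abcb1b, Mt1 and Mt2. All 10 were present in the table, and 9 of them were among the 12941 genes with enough reads to be tested; Abcc2 was not. Cells were kept for 6 days with DMSO as the vehicle, with cisplatin at 750 nM, with AU15330 at 2.5 uM, or with cisplatin and AU15330 at those doses, and each of the 4 groups had 6 RNA-seq libraries. AU15330 is a degrader that directs the chromatin remodelling ATPases SMARCA4 and SMARCA2 to the proteasome, and cisplatin is a platinum drug that crosslinks DNA. The cells were a cultured line with no host tissue, and their medium contained serum and a supplement of insulin, transferrin and selenium.

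Cisplatin enters and leaves cells partly along the routes of copper. SLC31A1 (CTR1) is the high-affinity copper importer of the plasma membrane and has been linked to platinum uptake, and its relative SLC31A2 (CTR2) works mostly on internal membranes. ATP7A and ATP7B are copper-pumping ATPases of the secretory pathway, while ABCC1, ABCC2, ABCC4 and the multidrug pump ABCB1B are ATP-driven exporters, several of which carry drugs or drug conjugates. Metallothioneins are small cysteine-rich proteins that bind zinc, copper and cadmium, and can bind platinum. Their genes are switched on by the zinc sensor MTF1 through short metal response elements in their promoters.

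The metallothionein promoters are shown because these genes had the largest changes of the set. The lines give the bases before the RefSeq start of each gene on GRCm38.p6, the mm10 assembly, with the core of the metal response element (TGCACNC or TGCGCNC on either strand) in capitals. The Mt1 line covers 243 bases and stops at its first GENCODE start, a few bases short of the RefSeq start, and the Mt2 line covers 250. Mt1 is the plus strand of chr8:94178839-94179081 and Mt2 the plus strand of chr8:94172368-94172617, each written 5′ to 3′.
Mt1: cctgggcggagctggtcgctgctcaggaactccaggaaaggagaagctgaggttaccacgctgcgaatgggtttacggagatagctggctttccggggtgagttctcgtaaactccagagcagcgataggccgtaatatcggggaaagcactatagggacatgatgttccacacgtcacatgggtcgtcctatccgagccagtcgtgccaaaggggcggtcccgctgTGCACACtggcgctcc
Mt2: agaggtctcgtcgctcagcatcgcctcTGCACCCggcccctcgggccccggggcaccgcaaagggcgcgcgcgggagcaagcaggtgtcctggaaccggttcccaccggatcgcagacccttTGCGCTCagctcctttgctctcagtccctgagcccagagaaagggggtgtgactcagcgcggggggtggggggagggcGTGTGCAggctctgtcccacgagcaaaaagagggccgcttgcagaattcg
In windows that also took in 50 bases past the start, Mt1 held 3 cores and Mt2 held 4. At least 3 cores occurred in 1.97% of the 32851 promoter windows of the same length (300 bases), and at least 1 core in 25.7%. GENCODE places other Mt1 transcripts at starts of 94179211 and 94179241, so bases just before those starts lie outside the sequence shown. Of the 9 genes with a promoter in the RefSeq table, 6 held a core: Mt1, Mt2, Slc31a2, Atp7a, Atp7b and Abcc4. The antioxidant response core TGACNNNGC, found in 12.4% of windows, was present in the windows of Mt2, Slc31a2, Abcc2 and Abcc4, and overlapped no metal response core in the genes studied. These matches describe letters in a window, not binding.

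Library totals ran from 17592588 to 25260009 counts. Levels are given as CPM, counts brought to a common library size after scaling by the trimmed mean of M values, as mean ± SD over 6 libraries. Changes are log2 fold changes with a standard error (SE) from 1 edgeR quasi-likelihood fit over all libraries, called at a Benjamini-Hochberg adjusted p below 0.05 over all genes tested. The labels do not say that replicates were separate cultures, so these p-values measure the spread between libraries, which may be technical. Replicates 1 to 3 and 4 to 6 stood apart for several genes, and values within each set are given where they change a call described for the 10 genes. Mesothelial and ovarian surface markers (Krt7, Krt8, Krt18, Krt19, Wt1, Msln and Upk3b) summed to 3510 to 5310 CPM with DMSO, 4170 to 4850 with cisplatin, 1020 to 1150 with AU15330 and 1220 to 1400 with the combination. These markers did not move alike with cisplatin: Upk3b was at 13.9 to 63.5 CPM with DMSO and 177 to 233 with cisplatin, and Krt8 at 289 to 456 and 481 to 631, while Krt19, which carried much of the sum without AU15330, was at 1400 to 2520 and 1160 to 1700. Among leukocyte markers (Ptprc, Cd68, Lyz2, Cd3e and Cd79a) the summed level ran from 6.51 to 19.1 CPM with DMSO, 7.21 to 13.6 with cisplatin, 17.1 to 53.4 with AU15330 and 24.2 to 42.4 with the combination, almost all of it Cd68. Ptprc, the defining pan-leukocyte marker, reached at most 5 counts in a library. Fibroblast markers (Pdgfra, Dcn and Lum) summed to 19.2 to 41.7 CPM with DMSO, 146 to 224 with cisplatin, 44.9 to 69.7 with AU15330 and 48.4 to 81.1 with the combination. Nearly all of that sum was Dcn; Lum, at 0 to 49 counts per library, ran from 0.0413 to 0.227 CPM with cisplatin and from 0.439 to 2.12 with the combination, the other way from Dcn. Endothelial markers (Pecam1, Cdh5 and Kdr) summed to 2.87 to 4.28 CPM with DMSO, 8.24 to 12.5 with cisplatin, 0.261 to 0.715 with AU15330 and 0.483 to 1.1 with the combination, almost all of it Pecam1, while Cdh5 reached at most 3 counts and Kdr at most 1. The part of these marker shifts in the results below was not tested. In such bulk RNA, fewer cells expressing a gene and less RNA per cell cannot be told apart.

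With cisplatin against DMSO, 3 of the 9 tested genes were called higher (Slc31a2, Abcb1b and Mt2) and 2 lower (Slc31a1 and Abcc4), where 26.0% of all genes tested were called higher and 25.7% lower. AU15330 against DMSO gave 5 higher (Slc31a2, Atp7a, Abcb1b, Mt1 and Mt2) and 3 lower (Slc31a1, Atp7b and Abcc1), against backgrounds of 36.2% and 37.2%. The combination against cisplatin gave 4 higher (Abcc4, Abcb1b, Mt1 and Mt2) and 4 lower (Slc31a1, Slc31a2, Atp7b and Abcc1), against 35.4% and 32.7%. For the combination against AU15330 there were 2 higher (Slc31a1 and Abcb1b) and 1 lower (Mt1), against 22.2% and 19.5%. For the combination against DMSO there were 5 higher and 4 lower, against 36.8% and 36.5%. The interaction, the effect of AU15330 in the presence of cisplatin minus its effect without it, was called positive for 2 genes (Slc31a1 and Abcc4) and negative for 2 (Slc31a2 and Mt2), against 17.9% and 15.8%. With so many genes of the transcriptome called, the counts say little about these genes as a set, and the sizes and directions of each gene are described instead. The median log2 fold change of the 9 was −0.17 for cisplatin and 0.33 for AU15330 against DMSO, with −0.004 and −0.003 over all genes tested. Comparisons that share a group of libraries are not independent of each other.

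**Figure D1:**
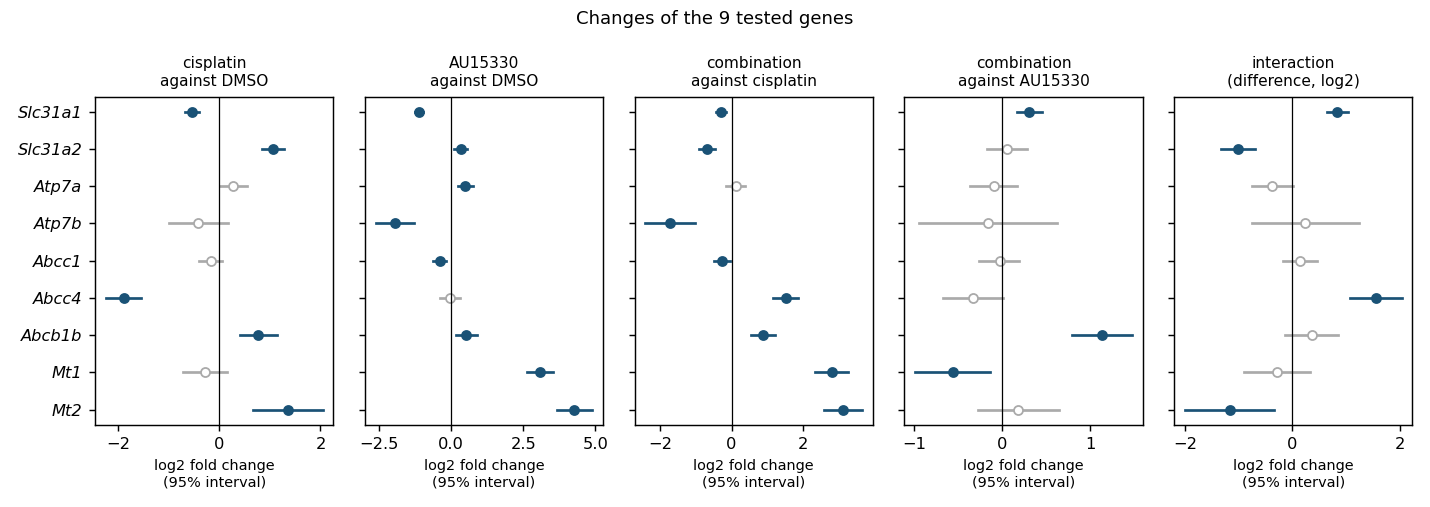
Log2 fold changes of the 9 tested genes (points) with 95% intervals (lines) in 4 comparisons and the interaction; filled dark points passed the adjusted p threshold, open grey points did not, and each panel has its own scale. Mt1 and Mt2 lie farthest to the right under AU15330 (3.08 and 4.28), and Abcc4 lies farthest to the left under cisplatin (−1.89).

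Mt1 and Mt2 rose most under AU15330, whether or not cisplatin was present. Mt1 (ENSMUSG00000031765.8, chr8:94179082-94180327, plus strand, 3 exons) was at 68.6 ± 27.2 CPM with DMSO, ranging from 39.5 to 103 around a median of 60.9. With cisplatin Mt1 ranged from 38.6 to 91.5 with a median of 51.9. With AU15330 its libraries lay between 496 and 711, with a median of 567, and with the combination between 314 and 485, with a median of 388. The DMSO and cisplatin groups overlapped, and every library with AU15330 was above all of them. The Mt1 change was 3.08 (SE 0.225, 8.45-fold, adjusted p = 3.03e-12) for AU15330 against DMSO and 2.79 (SE 0.222, 6.92-fold, adjusted p = 2.18e-11) for the combination against cisplatin. Cisplatin alone gave −0.28 (adjusted p = 0.283), which did not pass the test. Within AU15330-treated cells the addition of cisplatin went with lower Mt1, by −0.56 (SE 0.207, adjusted p = 0.031), and those groups did not overlap. That call was lost when replicate 2, 3, 4, 5 or 6 was left out (adjusted p from 0.0503 to 0.064) and within replicates 1 to 3 (−0.56, adjusted p = 0.0865), while the change stayed between −0.60 and −0.53 in these fits. The interaction for Mt1 was −0.29 (adjusted p = 0.48) over all libraries and −0.59 within replicates 4 to 6 (adjusted p = 0.0293).

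Mt2 (ENSMUSG00000031762.7, chr8:94172664-94173568, plus strand, 3 exons), which lies beside Mt1, was scarce with DMSO, at 0.83 ± 0.384 CPM and 9 to 25 counts per library. Its levels ran from 0.465 to 1.22 CPM with DMSO (median 0.803), 1.07 to 3.58 with cisplatin (median 1.75), 11.5 to 20.4 with AU15330 (median 16.7) and 13.2 to 24.1 with the combination (median 16.7). The groups with AU15330 overlapped each other and stood above the groups without it. Mt2 rose by 4.28 (SE 0.3, 19.4-fold, adjusted p = 1.34e-12) with AU15330 against DMSO and by 3.11 (SE 0.261, 8.61-fold, adjusted p = 6.3e-11) with the combination against cisplatin. Mt2 was also called higher with cisplatin alone, by 1.35 (SE 0.334, adjusted p = 0.00144). The combination and AU15330 alone differed in Mt2 by 0.18 (adjusted p = 0.544). The interaction for Mt2 was −1.17 (SE 0.404, adjusted p = 0.0271), and was no longer called without replicate 4 (−1.10, adjusted p = 0.0833) or without replicate 6 (−1.08, adjusted p = 0.0561), nor within replicates 1 to 3 (−1.01, adjusted p = 0.162). An antisense gene, Gm45774, overlaps 355 bases of Mt2 exons, and whether the counting used strand was not given in the sources used here.

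Within the DMSO group the metallothioneins split by replicate number. Mt1 was at 72.3 to 103 CPM in replicates 1 to 3 and at 39.5 to 49.4 in replicates 4 to 6, and Mt2 at 1.11 to 1.22 and at 0.465 to 0.493. Cd68, the macrophage-associated lysosomal gene, split in the same group from 13.4 to 18.9 CPM to 6.36 to 7.75; whether this bears on the metallothioneins was not tested. Within AU15330-treated cells the order of Cd68 was the other way, at 16.5 to 24.3 CPM in replicates 1 to 3 and 46.1 to 52.9 in replicates 4 to 6, while Mt1 ranged from 496 to 711 and from 529 to 584. The rise with AU15330 against DMSO was called within either set of replicates, at 2.72 for Mt1 and 3.83 for Mt2 in replicates 1 to 3 (adjusted p = 3.67e-07 and 4.36e-07), and at 3.59 and 4.95 in replicates 4 to 6 (adjusted p = 1.47e-11 and 7.86e-11).

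Per kilobase of transcript, Mt1 was the most abundant of the 10 genes in every group, at 125 CPM per kilobase with DMSO and 1050 with AU15330. Mt2 was at 1.62 CPM per kilobase with DMSO, 4.16 with cisplatin, 31.4 with AU15330 and 35.6 with the combination. The ratio of Mt1 to Mt2 per kilobase had a median of 82.7 with DMSO (range 55.3 to 94.9), 27.6 with cisplatin (18.1 to 33.6), 35.4 with AU15330 (27.4 to 40.7) and 20.9 with the combination (16.5 to 23.6). The DMSO ratios stood above all others, though they rest on few Mt2 counts. Across the 24 libraries the log2 CPM of Mt1 and Mt2 correlated at 0.94, and at 0.90 after the group means were removed; this is a description over libraries that share their groups. No 70-base stretch of either transcript occurred in a transcript of another gene.

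**Figure D2:**
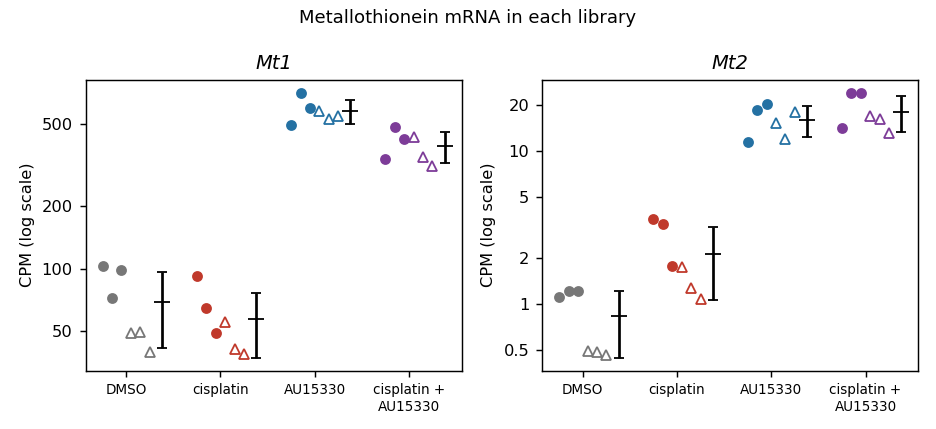
Mt1 and Mt2 in CPM on a log axis for each of the 24 libraries, by treatment; filled circles are replicates 1 to 3, open triangles replicates 4 to 6, and black marks the mean ± SD. All libraries with AU15330 lie above all libraries without it for both genes, and in DMSO the circles lie above the triangles.

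Slc31a1, the copper importer, was lower in all 3 treated groups than with DMSO, and the 4 groups did not overlap. The gene (ENSMUSG00000066150.12, chr4:62360727-62391769, plus strand, 5 exons) was at 103 ± 11.7 CPM with DMSO (90.1 to 119), 71.8 ± 5.19 with cisplatin (67.1 to 79.8), 47.1 ± 2.75 with AU15330 (44.2 to 51) and 58.4 ± 1.83 with the combination (56.4 to 61.4). The medians of these groups were 103, 70.1, 46.7 and 57.7 CPM. Slc31a1 fell by 1.14 on the log2 scale with AU15330 (SE 0.0678, adjusted p = 4.67e-14) and by 0.53 with cisplatin (SE 0.0668, adjusted p = 3.27e-07), each against DMSO. The combination was lower than cisplatin alone (−0.30, SE 0.067, adjusted p = 0.000326) but higher than AU15330 alone (0.31, SE 0.0674, adjusted p = 0.00063), the latter not called within replicates 1 to 3 (0.27, adjusted p = 0.12). The interaction was 0.84 (SE 0.0949, adjusted p = 2.15e-07): the fall with AU15330 was smaller when cisplatin was present.

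Slc31a2, its neighbour on chromosome 4 (ENSMUSG00000066152.11, chr4:62262562-62298411, plus strand, 4 exons), did not follow it. Slc31a2 was at 11.3 ± 1.63 CPM with DMSO (9.26 to 13.2, median 11.2), 23.7 ± 2.9 with cisplatin (19.9 to 27.3, median 23.6), 14.2 ± 1.55 with AU15330 (12 to 16.5, median 13.9) and 14.8 ± 2.02 with the combination (12.2 to 17.3, median 15.4). The cisplatin libraries stood above all others, and the remaining groups overlapped in turn. Slc31a2 rose by 1.06 with cisplatin (SE 0.108, adjusted p = 8.5e-09) and by 0.33 with AU15330 (SE 0.109, adjusted p = 0.00935), each against DMSO. The call for AU15330 was lost without replicate 5 (0.25, adjusted p = 0.0619) and within replicates 1 to 3 (0.25, adjusted p = 0.205). It was lower in the combination than with cisplatin alone, by −0.68 (SE 0.107, adjusted p = 3.1e-06), and the difference between the combination and AU15330 alone was 0.05 (95% interval −0.17 to 0.28, adjusted p = 0.729). The interaction was −1.01 (SE 0.153, adjusted p = 1.5e-05). The combination was higher than DMSO by 0.38 (adjusted p = 0.00305), and not called within replicates 1 to 3 (0.31, adjusted p = 0.123).

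The copper pumps moved in opposite directions under AU15330. Atp7a (ENSMUSG00000033792.12, chrX:106027276-106124926, plus strand, 23 exons) was at 67.2 ± 17.7 CPM with DMSO (48.6 to 91.5, median 62.4) and 94.2 ± 7.4 with AU15330 (81.1 to 102, median 95.1), and these ranges overlapped. With cisplatin it was at 81.4 ± 10.5 (68.1 to 93.5, median 85.7) and with the combination at 88 ± 12.4 (70.7 to 106, median 87.9). Atp7a rose by 0.49 with AU15330 (adjusted p = 0.00162) and by 0.39 with the combination (adjusted p = 0.00935), each against DMSO; the latter call was lost without replicate 3 (0.29, adjusted p = 0.057) or 5 (0.33, adjusted p = 0.0505) and within replicates 4 to 6 (0.21, adjusted p = 0.14). Its difference with cisplatin was 0.28 (95% interval 0.01 to 0.54, adjusted p = 0.0771), which passed the threshold without replicate 2 (0.40, adjusted p = 0.017) or 6 (0.34, adjusted p = 0.038), and with scaling by total counts (0.35, adjusted p = 0.024). The interaction for Atp7a was −0.37 (adjusted p = 0.116), and was called without replicate 2 (−0.56, adjusted p = 0.0272) and within replicates 4 to 6 (−0.52, adjusted p = 0.0308).

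Atp7b (ENSMUSG00000006567.11, chr8:21992785-22060305, minus strand, 21 exons) was scarce, at 3 to 62 counts per library. It was at 1.91 ± 0.802 CPM with DMSO (0.7 to 3.02, median 1.89), 1.44 ± 0.26 with cisplatin (1.07 to 1.88, median 1.43), 0.488 ± 0.203 with AU15330 (0.264 to 0.822, median 0.471) and 0.439 ± 0.222 with the combination (0.13 to 0.671, median 0.479). All libraries with cisplatin alone were above all libraries with AU15330, while the lowest DMSO library lay within the AU15330 range. Atp7b fell by 1.96 with AU15330 against DMSO (SE 0.326, adjusted p = 6.85e-06) and was lower by −1.72 in the combination than with cisplatin (SE 0.335, adjusted p = 6.54e-05). With cisplatin the difference was −0.41 (adjusted p = 0.24). The libraries without AU15330 were enough for Atp7b to pass the low-count filter; with no such filter the first of these changes was −1.97 (adjusted p = 5.16e-06) and the second −1.75 (adjusted p = 5.15e-05). 

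**Figure D3:**
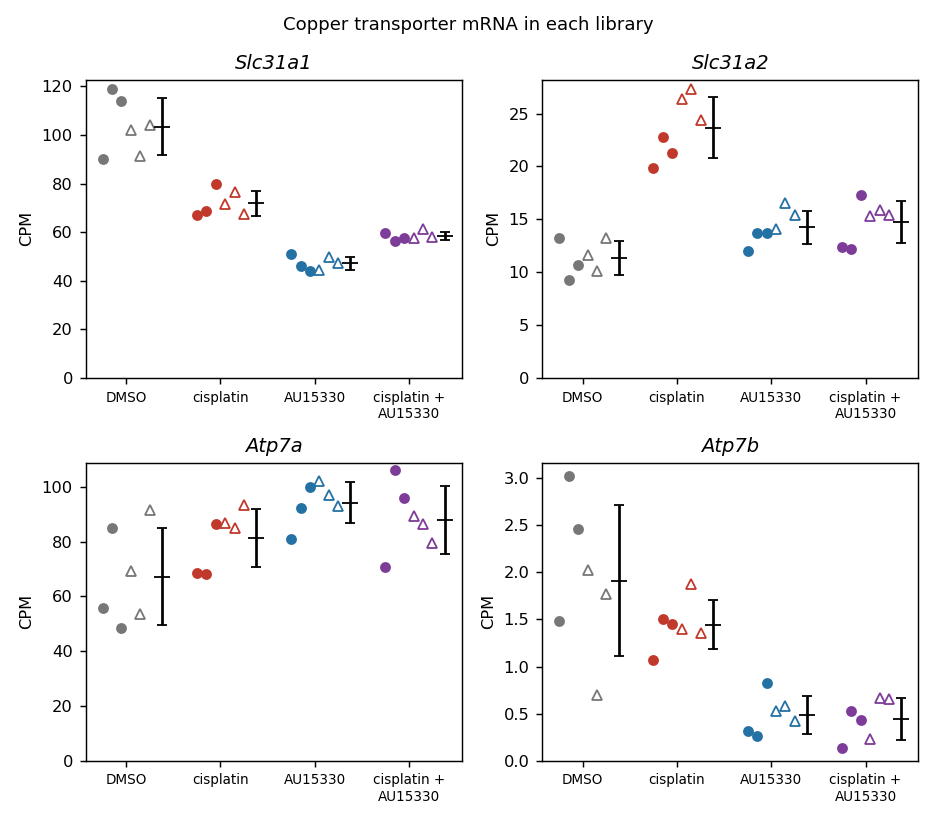
Slc31a1, Slc31a2, Atp7a and Atp7b in CPM on linear axes from 0 for each of the 24 libraries, by treatment; filled circles are replicates 1 to 3, open triangles replicates 4 to 6, and black marks the mean ± SD. The 4 groups of Slc31a1 do not overlap, and the cisplatin group of Slc31a2 (19.9 to 27.3) lies above the others.

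Among the ABC exporters, Abcc4 had the largest response to cisplatin and Abcb1b was highest in the combination. Abcc4 (ENSMUSG00000032849.14, chr14:118482692-118706219, minus strand, 31 exons), an exporter of cyclic nucleotides and drugs, was at 169 ± 58.8 CPM with DMSO, with a median of 191, a highest library of 227 and its lowest, replicate 1, at 66.2. With cisplatin it was at 45.8 ± 3.9 (42.8 to 53.1, median 44.8), with AU15330 at 165 ± 8.68 (156 to 177, median 164) and with the combination at 131 ± 9.38 (116 to 144, median 132). The cisplatin libraries lay below all others, DMSO replicate 1 included. Abcc4 was 3.69-fold lower with cisplatin than with DMSO (log2 fold change −1.89, SE 0.171, adjusted p = 1.04e-09), and higher by 1.51 in the combination than with cisplatin (SE 0.169, adjusted p = 1.33e-08). The interaction was 1.55 (SE 0.234, adjusted p = 1.51e-05), and 1.12 within replicates 1 to 3, where it was not called (adjusted p = 0.0662). AU15330 against DMSO gave −0.04 (adjusted p = 0.84), with −0.23 without replicate 1 (adjusted p = 0.026), −0.37 within replicates 4 to 6 (adjusted p = 7.85e-05) and 0.36 within replicates 1 to 3 (adjusted p = 0.26). The combination and AU15330 alone did not overlap, with a change of −0.33 (adjusted p = 0.106) that was called without replicate 1 (−0.33, adjusted p = 0.00532), within replicates 4 to 6 (−0.34, adjusted p = 0.000503) and when only those groups were fitted (−0.33, adjusted p = 8.81e-05). The combination was lower than DMSO by −0.37 (adjusted p = 0.0445), but this value ran from −0.71 to −0.03 over the alternative settings. It was −0.03 within replicates 1 to 3 (adjusted p = 0.924), −0.71 within replicates 4 to 6 (adjusted p = 7.77e-08) and −0.56 without replicate 1 (adjusted p = 8.87e-06). The call was also lost with scaling by total counts (−0.24, adjusted p = 0.202), without replicate 2, 4, 5 or 6 (−0.37 to −0.27, adjusted p from 0.0953 to 0.196) and when only those groups were fitted (−0.36, adjusted p = 0.13).

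Abcb1b (ENSMUSG00000028970.9, chr5:8798147-8866315, plus strand, 28 exons), a rodent multidrug resistance pump, was at 3.02 ± 0.321 CPM with DMSO (2.66 to 3.51, median 3.04), 5.18 ± 1.02 with cisplatin (3.97 to 6.67, median 5.03), 4.3 ± 1.3 with AU15330 (3.05 to 5.94, median 3.98) and 9.47 ± 1.67 with the combination (7.32 to 11.9, median 9.81). The combination stood above all other groups, and cisplatin above DMSO. Abcb1b rose by 0.77 with cisplatin (SE 0.175, adjusted p = 0.000611) and by 1.65 with the combination (adjusted p = 3.48e-09), each against DMSO. The combination was higher than cisplatin by 0.87 (adjusted p = 4.2e-05) and higher than AU15330 by 1.13 (adjusted p = 5.71e-06). For AU15330 alone the change was 0.52 (adjusted p = 0.0113), and it was lost without replicate 1 (0.36, adjusted p = 0.071) or 3 (0.42, adjusted p = 0.0686) and was 0.07 within replicates 4 to 6 (adjusted p = 0.694). The interaction was 0.36 (adjusted p = 0.266) over all libraries, 0.82 within replicates 4 to 6 (adjusted p = 0.00733) and −0.04 within replicates 1 to 3 (adjusted p = 0.948). Of the 70-base stretches of the Abcb1b transcript, 13.4% also occur in Abcb1a or Abcb4, so its counts carry some uncertainty; the antisense gene Gm5106, which overlaps its exons by 104 bases, had at most 2 counts in a library.

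Abcc1 (ENSMUSG00000023088.17, chr16:14361558-14475737, plus strand, 31 exons), which exports glutathione conjugates, was at 237 ± 49 CPM with DMSO (155 to 301, median 240), 211 ± 26.5 with cisplatin (164 to 242, median 215), 181 ± 18 with AU15330 (152 to 199, median 187) and 177 ± 9.9 with the combination (160 to 189, median 177). These ranges overlapped between all groups. Abcc1 was lower with AU15330 (−0.40, adjusted p = 0.00242) and with the combination (−0.43, adjusted p = 0.0012) than with DMSO, the latter not called within replicates 1 to 3 (−0.43, adjusted p = 0.077). The combination and AU15330 alone differed by −0.03 over all libraries, and by −0.18 within replicates 4 to 6, where this was called (adjusted p = 0.0328). The combination was lower than cisplatin by −0.26 (adjusted p = 0.0412), a call lost without replicate 3, 4, 5 or 6 (adjusted p from 0.082 to 0.116), within replicates 1 to 3 (−0.23, adjusted p = 0.367) and with scaling by total counts (−0.19, adjusted p = 0.115). Cisplatin gave −0.17 (adjusted p = 0.204), called without replicate 1 (−0.22, adjusted p = 0.0143). Abcc2 (ENSMUSG00000025194.5, chr19:43782192-43840740, plus strand, 32 exons), the exporter of conjugates into bile, had 0 to 7 counts in every library, and no change could be measured at this depth. A library with no count of a gene allows up to 0.12 to 0.186 CPM, taking 3 counts as the limit, and such limits cover counting error only.

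**Figure D4:**
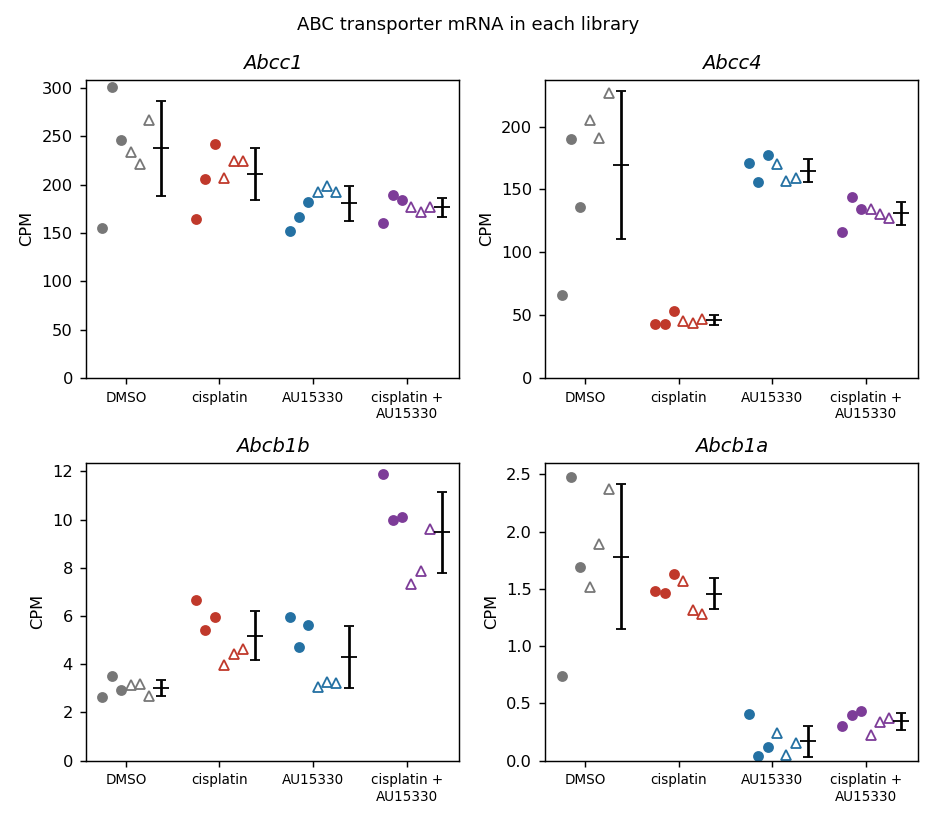
Abcc1, Abcc4, Abcb1b and its paralog Abcb1a in CPM on linear axes from 0 for each of the 24 libraries, by treatment; filled circles are replicates 1 to 3, open triangles replicates 4 to 6, and black marks the mean ± SD. Abcc4 is lowest with cisplatin (42.8 to 53.1), Abcb1b is highest in the combination (7.32 to 11.9), and Abcb1a reaches at most 0.431 in both groups with AU15330.

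A wider list of 33 genes of metal and platinum handling was read beside these genes, of which 24 had enough counts to be tested. These were fitted over all libraries only, not within the sets of replicates or under the other alternative settings. With cisplatin against DMSO, 3 were called higher and 7 lower, where 26.0% and 25.7% of all genes tested were. With AU15330 against DMSO, 5 were higher and 13 lower, against 36.2% and 37.2%. With the combination against cisplatin, 5 were higher and 12 lower, against 35.4% and 32.7%. The median log2 fold change of the 24 was −0.03, −0.29 and −0.20 in those comparisons. The corresponding medians over all genes tested were −0.004, −0.003 and 0.04.

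Of the genes of zinc handling and the metal response, 3 of 6 were tested. Slc30a1, the zinc exporter of the plasma membrane and a target of MTF1, was lower with AU15330, where Mt1 and Mt2 were higher. It was at 147 to 180 CPM with DMSO, 75.7 to 102 with cisplatin, 32.1 to 47.9 with AU15330 and 40.5 to 57.4 with the combination, with no library with AU15330 reaching those without it. Slc30a1 fell by 2.12 with AU15330 against DMSO (SE 0.0976, adjusted p = 2.21e-16) and by 0.90 with cisplatin (SE 0.0937, adjusted p = 1.33e-08). The zinc importer Slc39a10 fell by 1.16 with AU15330 (adjusted p = 1.93e-09) and by 0.51 with cisplatin (adjusted p = 0.000713). Mtf1 itself was at 24.8 to 29.5 CPM with DMSO and 26.5 to 27.4 with AU15330, a change of 0.005 (95% interval −0.13 to 0.14, adjusted p = 0.951). With cisplatin Mtf1 rose by 0.22 (adjusted p = 0.00704). These are mRNA levels, and the activity of MTF1 was not measured. Whether MTF1 had a part in the changes of Slc30a1, Mt1 or Mt2 was not tested.

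Of the other ABC transporters, 5 of 6 were tested, and with AU15330 against DMSO 4 were called lower, where 37.2% of all genes tested were. Abcb1a, the close paralog of Abcb1b, was at 0.742 to 2.48 CPM with DMSO and at 0.044 to 0.405 with AU15330, where it had 1 to 9 counts per library. It passed the low-count filter through its DMSO and cisplatin libraries alone, so its lower level with AU15330, although counted among the calls, is given as values with no test. Abcc3, an exporter of organic anions, fell from 13.2 to 27.4 CPM with DMSO to 0.191 to 1.08 with AU15330 (−5.09, SE 0.295, adjusted p = 2.45e-14). Abcc5, an exporter of cyclic nucleotides, fell by 1.395 with AU15330 (adjusted p = 4.68e-12) and rose by 0.38 with cisplatin (adjusted p = 0.00271). In the combination it was lower than with cisplatin by −1.96 (adjusted p = 8.37e-15).

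Of the uptake and exchange genes, 6 of 10 were tested, 5 of which were lower and 1 higher with AU15330 against DMSO, against 37.2% and 36.2% of all genes tested. Lrrc8a to Lrrc8e encode subunits of the volume-regulated anion channel, some forms of which let cisplatin through. Lrrc8d fell by 1.47 (SE 0.079, adjusted p = 4.98e-15), from 101 to 147 CPM with DMSO to 41.4 to 50.2 with AU15330, without overlap. Lrrc8c fell by 1.39 (adjusted p = 7.86e-09). Lrrc8e had 11 to 21 counts per library with DMSO, 16 to 34 with cisplatin and 0 to 8 with AU15330, and as it passed the filter through its libraries without AU15330, no test is given for it although it is counted among the calls. With cisplatin alone 1 of the 6, Lrrc8d, was called, at −0.23 (adjusted p = 0.0157). In that comparison 26.0% of all genes tested were called higher and 25.7% lower.

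The 4 glutathione genes were lower with cisplatin in 3 cases and higher in the combination than with cisplatin in all 4, where 25.7% of all genes tested were lower and 35.4% higher in those comparisons. With AU15330 against DMSO, 2 of the 4 were called higher and 1 lower, against 36.2% and 37.2%. With the combination against DMSO, 2 were called higher and 0 lower, against 36.8% and 36.5%. Gstp1, a glutathione transferase, was at 91.2 to 171 CPM with DMSO, 44.8 to 71.4 with cisplatin, 614 to 1040 with AU15330 and 376 to 506 with the combination. None of these groups overlapped. Gstp1 fell by 1.16 with cisplatin (SE 0.147, adjusted p = 3.24e-07) and rose by 2.85 with AU15330 (SE 0.154, adjusted p = 5.87e-15), each against DMSO, and was higher by 3.00 in the combination than with cisplatin (adjusted p = 3.66e-15). Gclc, the catalytic subunit of the enzyme that limits glutathione synthesis, fell by 1.09 with cisplatin (adjusted p = 8.27e-06) and was higher by 1.24 in the combination than with cisplatin (adjusted p = 5.15e-07). The combination and DMSO differed in Gclc by 0.15 (adjusted p = 0.427). Of the copper chaperones and regulators, 6 of 7 were tested. None had a log2 fold change of 1 or more in size with cisplatin or AU15330 against DMSO, or in the combination against cisplatin. With AU15330 against DMSO, 2 were called higher and 1 lower, against 36.2% and 37.2% of all genes tested.

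**Figure D5:**
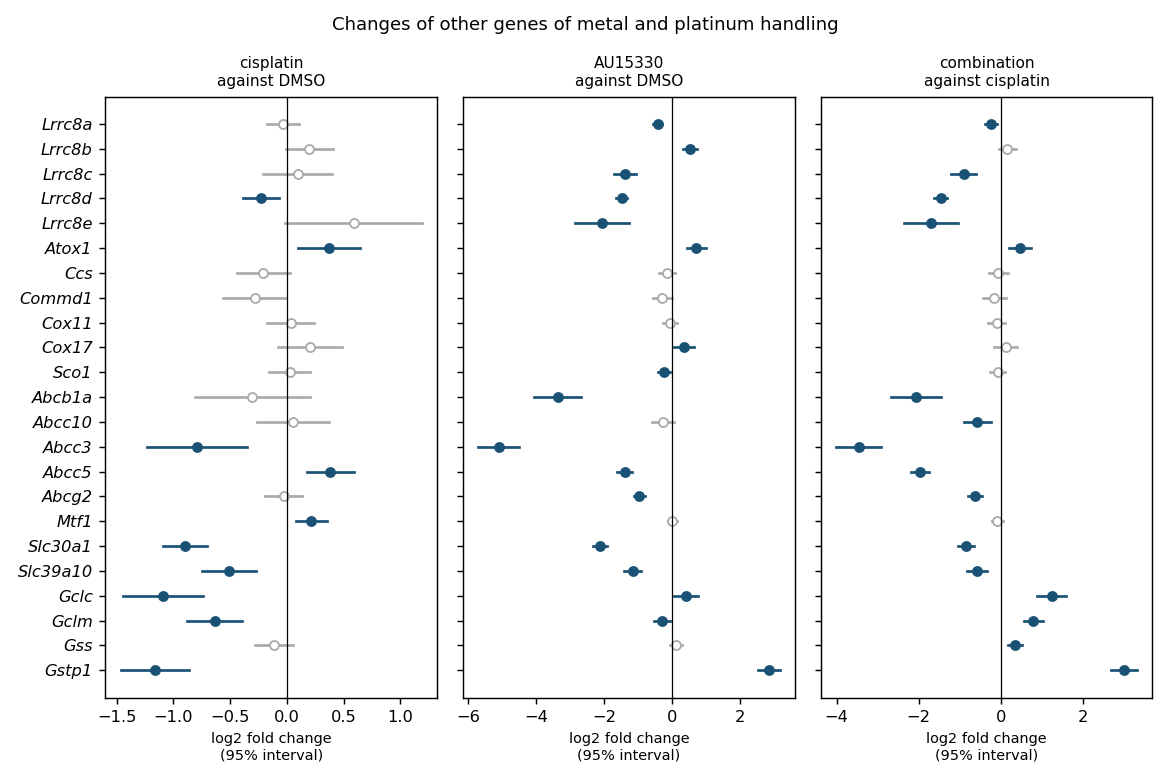
Log2 fold changes (points) with 95% intervals (lines) of the tested genes of the wider list reported here, in 3 comparisons; filled dark points passed the adjusted p threshold, open grey points did not, and each panel has its own scale. Gstp1 lies farthest to the right (2.85) and Abcc3 farthest to the left (−5.09) with AU15330 against DMSO.

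For each tested gene, the genes whose log2 CPM followed it most closely over the 24 libraries were found among 8385 well-expressed genes, as a description with no test, since libraries of a group share their treatment. Closest to Slc31a1 were Ptgs2 (r = 0.977), Cyb5b (0.968) and Slc30a1 (0.966), the zinc exporter described above. Closest to Mt1 were Mtap (0.985), Tlcd1 (0.985) and Atp6ap1 (0.98), and closest to Mt2 were Usp14 (0.978), Inhba (0.976) and Eif5a2 (0.973). For Slc31a2 they were Vsig10 (0.929), Mbd1 (0.907) and Uba7 (0.9), for Atp7a Dmxl1 (0.953), Cbl (0.95) and Birc6 (0.95), and for Atp7b Pdlim5 (0.917), Adgrg6 (0.912) and St3gal2 (0.908). For Abcc1 they were Gpr107 (0.943), Sos1 (0.939) and Fam8a1 (0.926), for Abcc4 Rhot1 (0.955), Acaca (0.946) and Wfs1 (0.937), and for Abcb1b Tnfrsf12a (0.931), Tubb6 (0.929) and Ndc1 (0.929). Between the genes studied, Slc31a1 and Mt2 correlated at −0.88 and Slc31a2 and Abcc4 at −0.83, and after the group means were removed at −0.06 and −0.22.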

How the data were processed

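Poly(A) RNA was sequenced with a directional kit. The deposited values are raw read counts per gene symbol, which the authors made by aligning reads with STAR 2.7.1a to mm10, per the submitters' processing notes; these notes also name DESeq2 1.36.0. The counting tool, its annotation and its use of strand were not given in the sources used here. The 48 columns, 2 lanes for each of 24 libraries, were matched by title and summed. Lanes of a library differed by a chi-square per degree of freedom of 1.36 to 1.46, replicates by 2.3 to 122.

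The test was that of edgeR 4.0.16 under R 4.3.3 (filterByExpr, TMM scaling, quasi-likelihood F test, 20 residual degrees of freedom), with Benjamini-Hochberg adjustment over 12941 genes. The SE is the log2 fold change divided by the square root of F. On simulated counts for cisplatin against DMSO (12941 genes, 200 changed), 199 passed the filter, 188 were called, and 3.09% of calls were false. The simulation used the dispersions of the fit and no difference between sets of replicates. In the data 51.7% of genes were called in this comparison, so the simulated share of false calls need not hold there. DESeq2 1.42.0, other scalings, no filter, subsets of libraries and a replicate block were tried as alternatives for the 10 genes. Genes of the wider list were named where called with a log2 fold change of at least 1 in size in at least 1 of 3 comparisons (cisplatin or AU15330 against DMSO, the combination against cisplatin). A gene of the wider list that met this rule is counted with its list and not reported here by name. Mtf1, named beside them, fell outside this rule and was chosen after its values were seen. Levels per kilobase used 1 transcript per gene. The genes, lists and tests were chosen with earlier results of these data known. Coordinates are from GENCODE M21 and promoters from RefSeq. The dose of cisplatin is as the labels give it; the study's methods state a higher dose for this line, and the sources do not settle which applied.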

Additional observations from a re-analysis of the deposited data

Results flagged for a closer look

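For 4 genes the effect of AU15330 differed according to the presence of cisplatin, by the interaction term of the edgeR fit. The term was 0.84 for Slc31a1, −1.01 for Slc31a2, 1.55 for Abcc4 and −1.17 for Mt2 on the log2 scale. Over all genes tested, 17.9% had a positive call and 15.8% a negative call. The Abcc4 call was lost within replicates 1 to 3 (adjusted p = 0.0662). The Mt2 call was lost there and without replicate 4 or 6 (adjusted p from 0.0561 to 0.162). No library stood far from the others of its group in any of the 36 gene and group sets examined with Dixon's test, where chance gives about 1.8.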

How the results depend on the processing

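Of 747 values under alternative settings, 680 kept both their direction and their side of the threshold, 35 lost a call, 15 gained one and 17 changed sign. None of those that changed sign had been called over all libraries. With the combination against AU15330, 3 of the genes were called over all libraries, 1 within replicates 1 to 3 and 5 within replicates 4 to 6; for the interaction the counts were 4, 2 and 7. Within replicates 1 to 3 the calls over all genes fell from 6689 to 4361 for cisplatin against DMSO, from 5394 to 2817 for the combination against AU15330 and from 4361 to 1701 for the interaction. Within replicates 4 to 6 the last pair of comparisons had 5454 and 4807 calls over all genes. Within replicates 1 to 3 the sign changed for Abcc4 with AU15330 against DMSO (0.36), Abcc1 in the combination against AU15330 (0.06) and the Abcb1b interaction (−0.035). Within replicates 4 to 6 it changed for Atp7b with cisplatin (0.016), Atp7a in the combination against cisplatin (−0.086), Slc31a2 in the combination against AU15330 (−0.012) and the interactions of Atp7b (−0.039) and Abcc1 (−0.028). The cause was not tested.
Leaving out each replicate in turn gave values from −0.228 to 0.078 for Abcc4 with AU15330 against DMSO, from −0.009 to 0.09 for Slc31a2 and from −0.36 to 0.063 for Atp7b in the combination against AU15330, and from −0.117 to 0.39 for the Atp7b interaction. Scaling by total counts moved the median of all genes by 0.13 with AU15330 and 0.14 with the combination against DMSO, and Abcc4 with AU15330 to 0.085.

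The labels do not say what a replicate number marks. Of 36 pairs with the same number, 23 had deviations from the group means correlated above 0.1 (range −0.13 to 0.48, median 0.11, against a mean of −0.027 between other numbers). For 10 of 24 libraries, the mean correlation with libraries of the other groups was highest for their own number. Since not every pair exceeded 0.1, the numbers were not taken to pair the libraries. With the replicate block, 6 genes were called for cisplatin against DMSO, 8 for AU15330 against DMSO, 8 for the combination against cisplatin, 3 for the combination against AU15330, 8 for the combination against DMSO and 4 for the interaction; over all genes the block gave 7354, 9966, 9286, 6185, 9889 and 5303 calls in the same order, against 6689, 9497, 8813, 5394, 9486 and 4361 without it. Abcc4 with AU15330 was at 0.008 under the block. Atp7a with cisplatin was then called (0.29, adjusted p = 0.0381) and Abcc4 in the combination against DMSO was not (−0.34, adjusted p = 0.0625); the block changed no other call. Low counts limit the values of Abcc2, of Atp7b and of Mt2 with DMSO.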
